A study of Mus musculus with 9 samples.

Results

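The genes described here are 9 genes of the oligodendrocyte lineage, Sox10, Nkx2-2, Myrf, Pdgfra, Cspg4, Ptprz1, Cnp, Mbp and Mag. They were taken by gene symbol from a table of 50764 genes, and each symbol matched 1 row. Each library holds poly-A RNA from a small pool of retinal ganglion cells, which send their axons through the optic nerve, as the labels name them. They came from wild-type adult male mice 14 days after crush of that nerve. An adeno-associated virus (AAV2, 1.5 µL into the vitreous) carried Olig2 in the Olig2 group, Olig3 in the Olig3 group and green fluorescent protein in the GFP group, with 3 libraries in each group. Olig2 and Olig3 are related transcription factors of the basic helix-loop-helix family. Every group, GFP included, had the crush and a virus, so no uninjured or uninjected retina is among them. Cells were enriched on beads against Thy1 (CD90.2), and 10 to 20 GFP-positive cells were picked by hand per library, depending on which passage of the labels is read. The labels name neither the strain nor the promoter of the viruses, and do not say whether a group's libraries stem from separate animals. Their p-values therefore reflect library-to-library spread, which may be technical.

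Oligodendrocytes, the myelinating cells of the central nervous system, arise from progenitors that carry the receptor Pdgfra and the proteoglycan Cspg4 (NG2). Olig2 acts upstream of Sox10 and works with Nkx2-2 in specifying these cells. Sox10 and Olig2 turn on Myrf, a membrane-bound transcription factor that activates the genes of myelin, among them Mbp and Mag. In the mouse, myelin begins in the optic nerve behind the eye, and the neural retina normally holds neither oligodendrocytes nor myelin, while Ptprz1 and Cnp are also made by other glia and by neurons.

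Totals ran from 5355691 to 6979851 counts per library, so the 3 counts that a count of 0 allows came to 0.430 to 0.560 CPM (counts scaled to a common total). The cDNA was amplified over 20 cycles without molecular identifiers, and floors and counting intervals cover counting error only. Ganglion cell markers (20 genes) summed to 313 to 580 CPM in the Olig2 group, 300 to 429 CPM in the Olig3 group and 1142 to 2543 CPM in the GFP group. Rod genes (16 genes) summed to 87587 to 152090, 69140 to 168952 and 52854 to 80723 CPM in the Olig2, Olig3 and GFP groups, so rod transcripts exceeded those of the labelled cell type in every library. In such pools fewer cells of a type and less RNA per cell cannot be told apart. Olig3 libraries 1 and 3 had the fewest detected genes, 16188 and 14434, against 18184 to 21338 in the others. Malat1, a nuclear noncoding RNA, took 11.7% and 6.15% of the counts in Olig2 libraries 2 and 3 and 8.54% in Olig3 library 2, against 2.65 to 4.14% elsewhere. The gene Olig2 had 114, 97 and 21 counts in the Olig2 libraries, 6, 4 and 0 in the Olig3 libraries and none in the GFP libraries. Olig3 had 172, 113 and 597 counts in the Olig3 libraries, 0, 5 and 7 in the Olig2 libraries and 13, 0 and 40 in the GFP libraries. Olig1, a paralog of both, which lies beside Olig2 and also acts in this lineage, had at most 1 count in any library.

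The 9 genes split into 3 that were read in every library, Ptprz1, Cnp and Mbp, and 6 that were at or near 0. The 3 held 96.1 to 100% of the 9 genes' counts in each library. The other 6 together had 46, 6 and 11 counts in the Olig2 libraries, 0, 27 and 0 in the Olig3 libraries and 1, 9 and 1 in the GFP libraries. For 2 members of the first kind and 1 of the second, the 250 bases before an annotated transcription start are shown (RefSeq, build GRCm38.p6), 5′ to 3′ on the gene's strand, because they are a gene read in every library at a like level, the gene with the lowest p in a test, and a myelin gene without counts in the GFP libraries. Capitals mark E-boxes, the letters CANNTG, which read the same on both strands and are the kind of site that basic helix-loop-helix factors bind.
Cnp, chr11:100574689-100574938, plus strand: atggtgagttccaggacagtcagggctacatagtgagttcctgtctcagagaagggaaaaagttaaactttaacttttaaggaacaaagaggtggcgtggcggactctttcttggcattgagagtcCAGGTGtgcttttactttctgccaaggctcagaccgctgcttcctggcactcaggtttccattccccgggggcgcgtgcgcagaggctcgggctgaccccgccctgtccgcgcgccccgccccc
Ptprz1, chr6:22875252-22875501, plus strand: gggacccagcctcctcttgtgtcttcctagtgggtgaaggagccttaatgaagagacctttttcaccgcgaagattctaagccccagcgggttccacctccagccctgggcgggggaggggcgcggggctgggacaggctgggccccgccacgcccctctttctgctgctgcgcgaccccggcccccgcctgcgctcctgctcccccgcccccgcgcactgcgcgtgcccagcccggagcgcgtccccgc
Mag, chr7:30914864-30915113, minus strand, 1 of 3 annotated starts: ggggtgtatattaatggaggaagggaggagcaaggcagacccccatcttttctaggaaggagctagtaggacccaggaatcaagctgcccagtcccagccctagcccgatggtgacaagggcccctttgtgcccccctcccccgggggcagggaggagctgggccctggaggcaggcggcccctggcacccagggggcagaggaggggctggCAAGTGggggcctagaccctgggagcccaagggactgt
The windows printed for Cnp and Mag held 1 E-box each and that of Ptprz1 held 0, while those at the other 2 starts of Mag held 0 and 2. Of the other members with a RefSeq entry, Pdgfra had 1, Nkx2-2 had 3 and Cspg4 had 0. An E-box was present in 66.2% of the 32851 RefSeq windows of that length. The form CAGATG, on either strand, was in 14.4% of them and CAGCTG in 13.0%. Among the 6 members searched, the first was in the windows of Pdgfra and Nkx2-2, once each, and the second in none. These are matches of letters, and binding was not measured.

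Sox10, the transcription factor that defines the lineage from progenitor to myelinating cell (mm10 chr15 79154908 to 79165240), had 0 counts in all 9 libraries. Together these hold 55469841 counts, so up to 0.0541 CPM over the series would have gone undetected. Nkx2-2, a homeodomain factor of progenitors and their differentiation (chr2 147177546 to 147194243), had 1 count in Olig2 library 2 and 0 in the other 8. Neither gene could be compared between groups at this depth, since Olig2, Olig3 and GFP libraries were all at or under 3 counts.

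Myrf, which activates myelin genes and is also made by the retinal pigment epithelium (chr19 10208272 to 10240748), was read in all Olig2 libraries at low counts. It had 31, 3 and 3 counts in the Olig2 libraries, 0, 8 and 0 in the Olig3 libraries and 0, 0 and 1 in the GFP libraries. Every Olig2 library lay above every GFP library, whereas Olig3 libraries 1 and 3 had none. Among all genes with 20 to 100 counts over the series, 8.02% had Olig2 libraries that all lay above the GFP libraries. After scaling, Myrf averaged 1.89 ± 2.19 CPM in the Olig2 group, 0.667 ± 1.16 CPM in the Olig3 group and 0.0446 ± 0.0773 CPM in the GFP group (SD, n = 3 each). From pooled counts the ratio of the Olig2 to the GFP group was 38.0 with a 95% counting interval of 6.42 to 1542, and the GFP group rested on 1 count. The gene did not reach the filter on low counts. Tested without that filter by edgeR's quasi-likelihood test, Olig2 against GFP had a Benjamini-Hochberg adjusted p = 0.925. DESeq2 gave an adjusted p = 0.711, from an unadjusted p = 0.0484. Olig2 library 1 held 31 of the group's 37 counts. Of 10 pigment epithelium markers, listed after the values of Myrf had been seen, 3, 4 and 6 had a count in the Olig2 libraries and the list summed to 1.47 to 6.54 CPM there, against 0 to 1.87 CPM in the Olig3 group and 4.28 to 15.2 CPM in the GFP group, and Rpe65 was at 0 in all libraries.

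Pdgfra, the growth factor receptor of progenitors, is also made by fibroblasts and by retinal astrocytes (chr5 75152292 to 75198215). It had 0, 2 and 0 counts in the Olig2 libraries, 0, 15 and 0 in the Olig3 libraries and 0 in each GFP library. Its reads thus came almost wholly from Olig3 library 2, the same library that held 8 counts of Myrf and 3 of Mag. The Olig3 group was at least 5.41-fold higher than the GFP group, with the GFP libraries set to 3 counts in all, and 7.89 times the Olig2 group (95% counting interval 1.84 to 71.1). Cspg4, which also marks pericytes (chr9 56865033 to 56899870), had 0, 0 and 1 counts in the Olig2 libraries, 0, 1 and 0 in the Olig3 libraries and 1, 9 and 0 in the GFP libraries. Here 9 of the 12 counts came from GFP library 2, and the ratio of the Olig2 to the GFP group was 0.103 (95% counting interval 0.00237 to 0.723). The groups overlapped for both genes. Without the filter, edgeR's adjusted p for Pdgfra was 0.498 in Olig3 against GFP and for Cspg4 0.925 in Olig2 against GFP.

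Mag, an adhesion protein of the innermost myelin wrap that also inhibits axon growth (chr7 30899176 to 30914873), had counts in the factor groups and none in the GFP group. It had 15, 0 and 7 counts in the Olig2 libraries, 0, 3 and 0 in the Olig3 libraries and 0 in each GFP library. Olig2 library 2 was at 0 as well, so the Olig2 and GFP libraries overlapped. The Olig2 group was at least 7.54-fold above the GFP group, set to 3 counts in all, and its mean was 1.13 ± 1.08 CPM (SD, n = 3). Without the filter, edgeR's quasi-likelihood test gave an adjusted p = 0.925. The ratio of the Olig3 to the Olig2 group was 0.143 (95% counting interval 0.0275 to 0.478). Like Myrf, Mag was highest in Olig2 library 1.

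**Figure D1:**
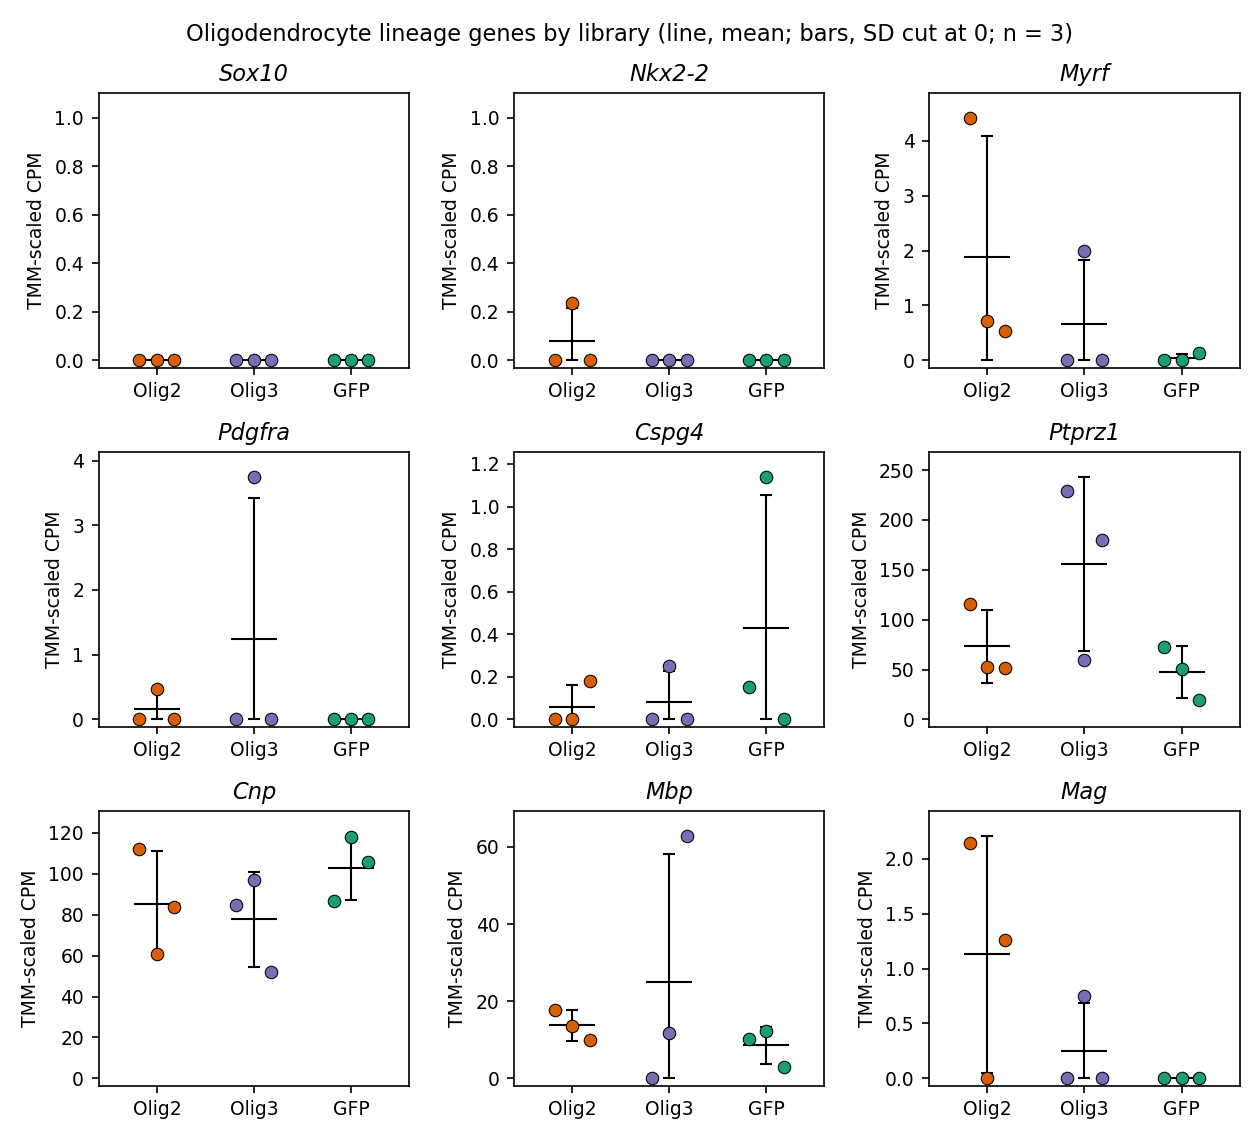
TMM-scaled CPM of each of the 9 genes in every library, with groups Olig2, Olig3 and GFP from left to right, each point a library, lines the mean and bars the SD of 3 libraries, cut at 0. Axes differ between panels. Sox10 lies at 0 throughout, Pdgfra at 3.75 CPM in a single Olig3 library, and Ptprz1, Cnp and Mbp are the genes read in every library.

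The number of the 9 genes with at least 1 count was 5, 6 and 6 in the Olig2 libraries, 3, 7 and 3 in the Olig3 libraries and 4 in each GFP library. It was lowest in the 2 libraries with the fewest detected genes and highest in the 3 libraries richest in Malat1. The part of library complexity in these numbers was not tested.

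**Figure D2:**
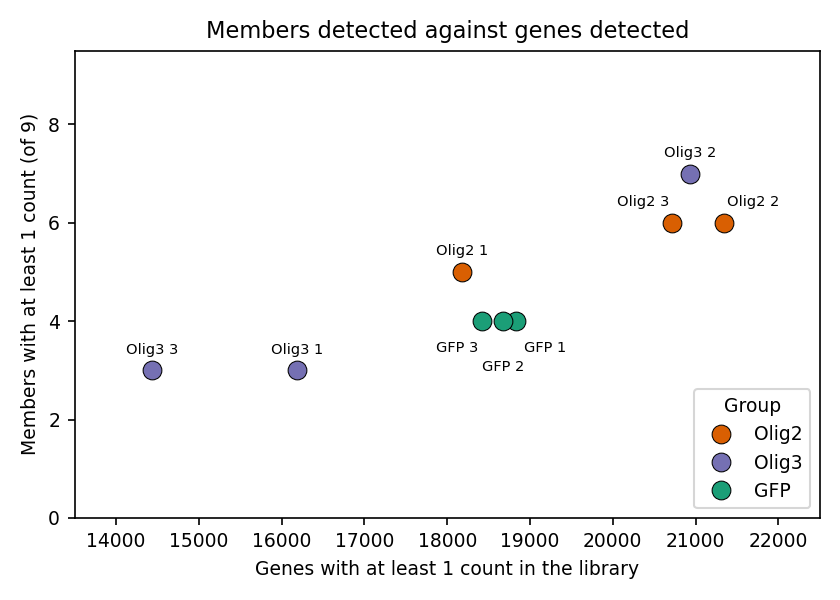
Members with at least 1 count, of 9, against the number of all genes with at least 1 count in the same library, each point a library coloured by group. Olig3 libraries 1 and 3 have 3 members at 16188 and 14434 detected genes, and Olig3 library 2 has 7 at 20933.

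Only Ptprz1, Cnp and Mbp passed the filter on low counts. In each comparison 0 of these 3 passed the edgeR test after adjustment over 15609 genes. Of all tested genes, 0.0513% were called in Olig2 against GFP, 0.205% in Olig3 against GFP and 0.0384% in Olig3 against Olig2. At an unadjusted p below 0.05 by edgeR there were 0, 1 and 0 members, the 1 being Ptprz1, beside 4.68, 12.1 and 5.12% of all genes. By DESeq2, 0 members passed in any comparison after adjustment, beside 0.394, 2.12 and 0.357% of the 29429 genes with a count. DESeq2 gave an adjusted p for only 4, 3 and 4 members. At an unadjusted p below 0.05 by DESeq2 there were 1, 1 and 0 members, Myrf in the first comparison and Ptprz1 in the second. Of the 29429 genes, 1217, 2939 and 1542 reached that p. Per length, Cnp lay above Ptprz1 and Ptprz1 above Mbp in all 9 libraries. In the GFP group, per kilobase, Cnp had 23.9, 32.3 and 29.0 CPM, Ptprz1 5.06, 3.56 and 1.39 CPM and Mbp 1.22, 1.45 and 0.364 CPM. Over the 9 libraries the values of Ptprz1 and Mbp overlapped, and Cnp in Olig3 library 3, at 14.3 CPM per kilobase, lay below Ptprz1 in Olig3 library 1, at 16.1.

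Cnp, the cyclic nucleotide phosphodiesterase of noncompact myelin (chr11 100574904 to 100591729), was the most abundant member per length. Per kilobase of exon it had 23.5 ± 7.10 CPM in the Olig2 group, 21.4 ± 6.38 CPM in the Olig3 group and 28.4 ± 4.28 CPM in the GFP group (SD, n = 3 each). Between 77.4 and 92.6% of the genes detected in a library lay below it on that scale. Its scaled level was 112, 60.6 and 83.6 CPM in the Olig2 libraries, 84.8, 96.8 and 51.9 CPM in the Olig3 libraries and 86.8, 118 and 106 CPM in the GFP libraries. The groups overlapped, and no comparison passed the test. For Olig2 against GFP the log2 change was -0.27 (95% interval -0.93 to 0.38, edgeR adjusted p = 1.00), for Olig3 against GFP -0.41 (-1.07 to 0.25, edgeR adjusted p = 0.629) and for Olig3 against Olig2 -0.14 (-0.79 to 0.52, edgeR adjusted p = 0.968). Cnp shares 154 of its 3639 exonic bases with Dnajc7, a chaperone gene on the opposite strand with 568 to 1300 counts per library, and without a stated strand setting of the counting, reads in that overlap cannot be told apart.

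Ptprz1, a receptor tyrosine phosphatase of progenitors that is also made by Müller glia and other radial glia (chr6 22875502 to 23052916), showed the lowest p of the 3 tested genes. It had 811, 219 and 287 counts in the Olig2 libraries, 1556, 239 and 1228 in the Olig3 libraries and 482, 400 and 148 in the GFP libraries. Scaled, this was 116, 52.2 and 51.5 CPM in the Olig2 group, 229, 59.8 and 180 CPM in the Olig3 group and 72.1, 50.8 and 19.8 CPM in the GFP group. Olig3 libraries 1 and 3 stood above all others, and Olig3 library 2 lay within the range of the GFP libraries, so the groups overlapped. The Olig3 mean was 156 ± 87.3 CPM and the GFP mean 47.6 ± 26.3 CPM (SD, n = 3 each), a ratio of 3.29. The log2 change of Olig3 against GFP was 1.72 (SE 0.550, 95% interval 0.52 to 2.92), with an unadjusted p = 0.00900 and an edgeR adjusted p = 0.266, which did not pass. DESeq2 gave an adjusted p = 0.0712. With no filter on low counts edgeR gave an adjusted p = 5.19e-05 for the same change of 1.72, in a fit that called 1.89% of 29429 genes (556). Without Olig3 libraries 1 and 3 the change was 0.34. Olig2 against GFP gave a log2 change of 0.62 (-0.56 to 1.80, edgeR adjusted p = 1.00), which was 0.10 without Olig2 library 1. Olig3 against Olig2 gave 1.10 (-0.09 to 2.28, edgeR adjusted p = 0.933).

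The 13 Müller glia markers summed to 3436, 4715 and 3842 CPM in the Olig2 libraries, 4460, 2574 and 1122 CPM in the Olig3 libraries and 4340, 4348 and 7988 CPM in the GFP libraries. Clu and Apoe, with means of 1610 and 1455 CPM over all libraries, carried most of that sum. In Olig3 against GFP the median change in log2 CPM of the 13 markers was -1.06, beside -0.18 for all tested genes. At an unadjusted p below 0.05 by edgeR, 0 were higher and 3 lower, beside 12.1% of all tested genes. Only Glul, glutamine synthetase, and Abca8a were higher, with log2 changes of 0.89 and 0.68 (edgeR adjusted p = 0.421 and 0.670). All other markers were lower, among them Slc1a3, a glutamate transporter, with -1.64 (edgeR adjusted p = 0.259). The part of Müller glia in the Ptprz1 counts was not tested. Among the 3 of 12813 genes whose log2 CPM was most like that of Ptprz1 over the 9 libraries were Cntn4 and Fstl5, with Pearson correlations of 0.974 and 0.964. Cntn4, a neuronal adhesion molecule, had 107, 61.8 and 63.0 CPM in the Olig2 libraries, 196, 79.0 and 211 CPM in the Olig3 libraries and 62.0, 48.4 and 18.1 CPM in the GFP libraries. These are the highest of many correlations over 9 libraries that share depth and makeup, and are a description only.

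**Figure D3:**
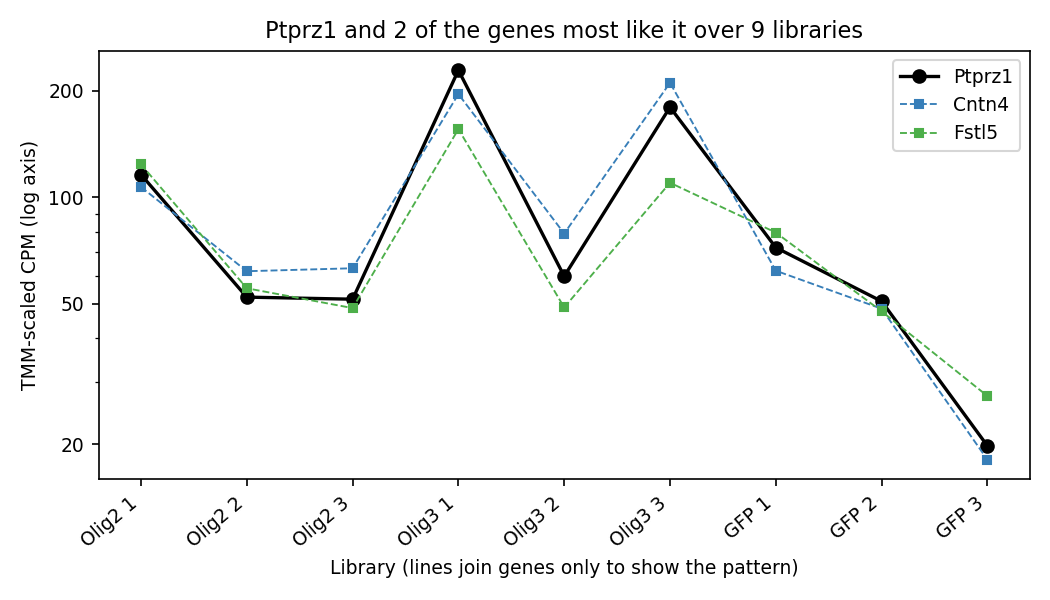
TMM-scaled CPM on a log axis of Ptprz1 and of 2 of the genes most like it, Cntn4 and Fstl5, in the 9 libraries ordered Olig2, Olig3, GFP. All 3 genes are high in Olig3 libraries 1 and 3 and lowest in GFP library 3, where Ptprz1 lies at 19.8 CPM.

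Mbp, the main cytoplasmic protein of compact myelin (chr18 82475146 to 82585637), was read in every library, at levels that differed most within the Olig3 group. The same gene also encodes the golli proteins of neurons and lymphoid cells, which counts per gene do not separate. It had 125, 57 and 55 counts in the Olig2 libraries, 1, 47 and 429 in the Olig3 libraries and 69, 97 and 23 in the GFP libraries. Olig3 library 1 was the lowest and Olig3 library 3 the highest of all 9. The means were 13.8 ± 3.99 CPM in the Olig2 group, 24.9 ± 33.4 CPM in the Olig3 group and 8.57 ± 4.86 CPM in the GFP group (SD, n = 3 each). The log2 change was 0.68 for Olig2 against GFP (95% interval -1.93 to 3.29, edgeR adjusted p = 1.00), 1.54 for Olig3 against GFP (-1.10 to 4.19, edgeR adjusted p = 0.658) and 0.86 for Olig3 against Olig2 (-1.75 to 3.46, edgeR adjusted p = 0.954). Without Olig3 library 3 the changes of the Olig3 group turned to -0.54 against GFP and -1.23 against Olig2. Exo5 and Zc3h6 were among the 3 genes most like Mbp over the 9 libraries (Pearson correlations 0.988 and 0.974), and Plod1 and Setd1b among the 3 most like Cnp (0.960 and 0.951). Markers of B, plasma and T cells (14 genes) summed to 2264 to 8860 CPM in the Olig2 group. Their sums were 28.0 to 66.9 CPM in the Olig3 group and 17.8 to 144 CPM in the GFP group. The immunoglobulin gene Igkc held most of the Olig2 sum, with a mean of 4550 CPM there, while Jchain, the next, averaged 212 CPM. The part of these cells in the Mbp counts was not tested.

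**Figure D4:**
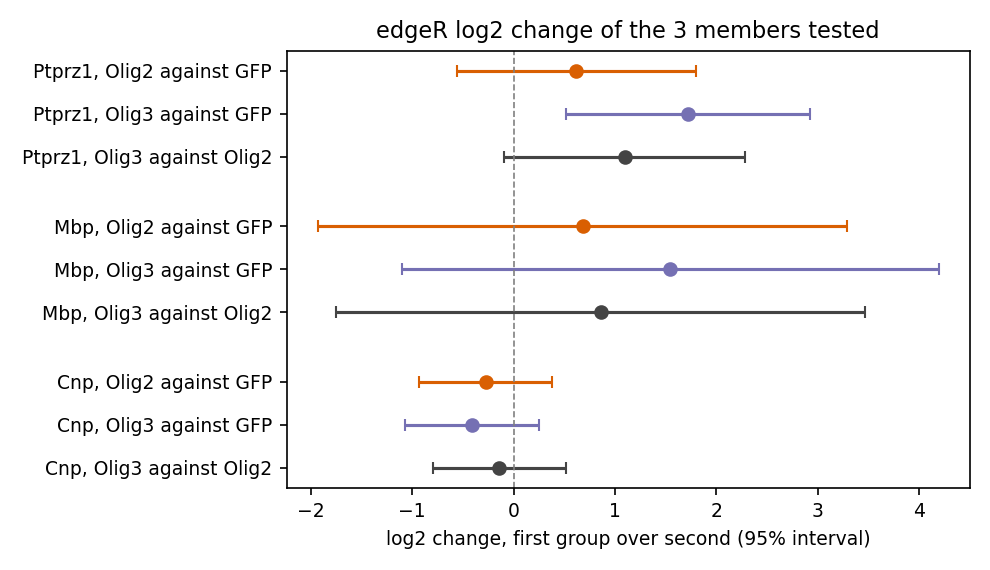
Log2 change from edgeR of the 3 members that passed the filter on low counts, in each of 3 comparisons, with 95% intervals, first named group over the second. The interval of Ptprz1 in Olig3 against GFP, 0.52 to 2.92, lies above 0, and all others reach across it.

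Other genes of the lineage were read from lists by stage, in which a gene may also be made by retinal cells. Of 19 further progenitor genes 17 had a count, 13 were tested, and 0 passed by edgeR in any comparison, adjusted or at an unadjusted p below 0.05. Their median change in log2 CPM was 0.16, -0.26 and -0.27, beside 0.06, -0.18 and -0.23 for all tested genes (Olig2 over GFP, then Olig3 over GFP, then Olig3 over Olig2). The most abundant were Pcdh15, a protocadherin also of photoreceptors (165 CPM over all libraries), C1ql1, a secreted synaptic organiser (134 CPM), and Lhfpl3 (66.4 CPM). Lhfpl3 and the proteoglycan gene Vcan had the smallest p in Olig2 against GFP, with log2 changes of 0.90 and -2.18 (edgeR adjusted p = 1.00 for both). C1ql1 had the smallest p in Olig3 against GFP, with a log2 change of -1.71 (edgeR adjusted p = 0.477). Gpr17, a receptor of committed progenitors, had 1 count in the series.

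Of 15 genes of newly formed oligodendrocytes 14 were in the table and had a count, 9 were tested, and 0 passed. Their medians were -0.26, -1.32 and -0.94 in the same order of comparisons, beside 0.06, -0.18 and -0.23 for all tested genes. Fyn, a Src-family kinase, was the only one of them at an unadjusted p below 0.05, with a log2 change of -1.55 in Olig3 against GFP and -1.31 against Olig2 (edgeR adjusted p = 0.332 and 0.933). Of all tested genes, 12.1 and 5.12% reached an unadjusted p below 0.05 by edgeR in these 2 comparisons. Sirt2, a deacetylase, averaged 103 CPM, Nfasc, an adhesion molecule of the node of Ranvier that neurons also make, 70.6 CPM and the small GTPase gene Rap2a 22.2 CPM over all libraries. Nfasc had log2 changes of 0.50 in Olig2 and 0.59 in Olig3 against GFP (edgeR adjusted p = 1.00 and 0.458), and Cnksr3 -2.21 in Olig2 against GFP (edgeR adjusted p = 1.00). Bcas1, which marks newly formed oligodendrocytes, had 1 count in the series.

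Of 26 further genes of mature myelin 22 had a count, 11 were tested and 0 passed by edgeR in any comparison. Mobp, Opalin, Cldn11 and Fa2h, all characteristic of mature oligodendrocytes, were at 0 in every library. Mog, a protein of the outer myelin surface, had 0, 1 and 4 counts in the Olig2 libraries, 0, 0 and 4 in the Olig3 libraries and 16, 0 and 0 in the GFP libraries. At an unadjusted p below 0.05 by edgeR there were 1 higher and 2 lower against GFP for each factor, and none between the factors. Of all tested genes, 4.68, 12.1 and 5.12% reached that p. Car2 was the higher gene in both, Cryab and Anln the lower under Olig2, and Cryab and Gpr37 under Olig3. Gpr37 had a log2 change of -1.22 in Olig3 against GFP (edgeR adjusted p = 0.216). The medians were -0.23, -1.23 and -0.28, beside 0.06, -0.18 and -0.23 for all tested genes. The most abundant, Plekhb1, also a photoreceptor gene (1756 CPM over all libraries), had log2 changes of -0.23 and -0.33 against GFP (edgeR adjusted p = 1.00 and 0.615). Car2, a carbonic anhydrase also of Müller glia (1008 CPM), had 0.64 and 1.10 (edgeR adjusted p = 0.978 and 0.148). Cryab, a small heat shock protein that is also a lens crystallin, had 189, 171 and 228 counts in the Olig2 libraries, 288, 183 and 53 in the Olig3 libraries and 1093, 2527 and 1180 in the GFP libraries. All GFP libraries lay above the others, and the log2 changes were -2.57 and -2.75 (edgeR adjusted p = 0.335 and 0.0799). Lens genes, of which 11 of 12 were in the table, summed to 2.39 to 5.17 CPM in the Olig2 group, 16.9 to 350 CPM in the Olig3 group and 108 to 4131 CPM in the GFP group, and their part in the Cryab counts was not tested. Anln, a cytokinesis scaffold, had a log2 change of -5.43 in Olig2 against GFP (edgeR adjusted p = 0.893).

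Markers of other cells that share these genes were read in all groups. Of 10 Schwann cell genes, the myelinating cells of peripheral nerve, the sum was 23.8 to 39.9 CPM in the Olig2 group, 9.31 to 54.1 CPM in the Olig3 group and 42.1 to 79.6 CPM in the GFP group. Of 15 genes of mural cells and fibroblasts, 4 to 9, 3 to 11 and 4 to 9 had a count in the Olig2, Olig3 and GFP libraries, with sums of 705 to 937, 924 to 1413 and 539 to 890 CPM. Vtn, which photoreceptors also make, averaged 914 CPM and held nearly all of that sum, while Rgs5, the next, averaged 3.27 CPM. Rgs5, a pericyte gene, had 0, 55 and 14 counts in the Olig2 libraries, 0, 50 and 0 in the Olig3 libraries and 6, 3 and 0 in the GFP libraries. The libraries with any count of Pdgfra, Olig2 library 2 and Olig3 library 2, were the highest in Rgs5. Olig3 library 2, with 15 counts of Pdgfra, had 11 of the 15 genes detected. It held 11 counts of Notch3, 9 each of Kcnj8 and Abcc9, 3 of Col1a2 and 1 each of Dcn and Col1a1. Libraries with 0 counts of Pdgfra held more of several of these genes. Notch3 had 47, 25 and 24 counts in the GFP libraries, and Kcnj8 had 18 in GFP library 2. Abcc9 had 33 in Olig2 library 1 and 27 in GFP library 1. Col1a2 had 24 in Olig3 library 3, and Dcn had 18 in Olig3 library 1. The part of mural cells and fibroblasts in the Pdgfra and Cspg4 counts was not tested. Of 7 astrocyte genes, sums were 192 to 390, 196 to 496 and 331 to 577 CPM in these groups. Slc1a2, a glutamate transporter (184 CPM over all libraries), had log2 changes of 0.35 in Olig2 and 0.95 in Olig3 against GFP (edgeR adjusted p = 1.00 and 0.145), and Aqp4, a water channel also of Müller glia (88.4 CPM), -0.04 and -0.23 (edgeR adjusted p = 1.00 and 0.901).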

How the data were processed

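Counts of reads per gene in 9 libraries (3 each of Olig2, Olig3 and GFP) were deposited by the authors as whole numbers, not normalized. FastQC, HISAT2, HTSeq and the build mm10 are named, per the submitters' processing notes. Their versions and options, strand included, are not given in the sources. Cells were lysed and amplified with a SMART-Seq kit, per the labels' protocols. Of 50764 genes, 50712 matched GENCODE release 21 of the mouse (M21), which gave coordinates and exon lengths. The 89 identifiers without a symbol were kept, with 0.00220 to 0.0165% of each library's counts. Within groups, every pair of libraries differed by more than counting noise (chi-square over its degrees of freedom at least 29.5).

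edgeR 4.0.16 in R 4.3.3 tested 15609 genes by quasi-likelihood with TMM factors, filterByExpr, 1 model over all libraries (6 residual degrees of freedom) and Benjamini-Hochberg adjustment at 0.05. CPM of single genes are TMM-scaled, and sums over lists are not. Median changes of lists use log2 CPM with a prior count of 2. DESeq2 1.42.0 was an alternative, beside RLE and upper quartile factors, no filter, 10 CPM in 3 libraries, the replicate number as a block, pairs of groups alone and leaving out libraries. Sets left out for Malat1 or few detected genes were chosen after seeing the data. The fit was tested on simulated data.

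The 9 genes and the lists were chosen with earlier results of these data known. Every member is named. Of the other lineage lists the rule names genes that passed, else the 3 most abundant and the 2 with the smallest p against GFP. Mog, Gpr17, Bcas1, the Müller glia genes other than Clu and Apoe, the mural and fibroblast genes other than Vtn and Rgs5, and genes at 0 were named after their values were seen, and some genes of the rule are not reported.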

Additional observations from a re-analysis of the deposited data

How the results depend on the processing

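The count of members past the threshold was 0 in every comparison with the settings tried, except for 1, Ptprz1, in Olig3 against GFP with no filter on low counts (log2 change 1.72). Counts of all genes called, the background of these statements, varied more. For Olig2 against GFP (8) they were 116 with DESeq2, 176 with no filter, 23 with the pair of groups alone, 5 without the 3 libraries richest in Malat1 and 41 without Olig3 libraries 1 and 3. For Olig3 against GFP (32) the same settings gave 625, 556, 0, 20 and 0. For Olig3 against Olig2 (6) they gave 105, 140, 2, 8 and 0. Leaving out 1 library moved them from 0 (GFP 1, GFP 3 or Olig2 1) to 24 (Olig3 3), from 0 (any GFP or Olig2 library, or Olig3 1) to 505 (Olig3 2, with 2 without Olig3 3), and from 2 (Olig2 1 or Olig3 3) to 160 (Olig3 2). In the first, leaving out GFP 2, Olig2 3 or Olig3 2 gave 5. The edgeR fits with 0 calls had 253 to 1806 genes at an unadjusted p below 0.05. The cause was not tested. Without Olig3 libraries 1 and 3, which leaves 1 Olig3 library assumed to vary like the others, the log2 changes of Olig3 against Olig2 turned to -0.29 for Ptprz1, -0.22 for Mbp and 0.18 for Cnp. Without the Malat1-rich libraries, which leaves 1 Olig2 library, Cnp turned to 0.12 in Olig2 against GFP. Over the fits leaving out 1 library, Mbp ranged from -0.54 to 2.13 in Olig3 against GFP and from -1.23 to 1.44 in Olig3 against Olig2, and Cnp from -0.33 to 0.13 in Olig3 against Olig2, turning without Olig2 library 1 or Olig3 library 3. None of these changes passed. The labels do not say whether equal replicate numbers mark a shared animal or day. Correlations of the deviations of same-numbered libraries from their group means ran from -0.0634 to 0.113. Those of differently numbered libraries ran from -0.115 to 0.0747. The highest was between Olig2 library 2 and Olig3 library 2. With 3 libraries a group, these values cannot settle whether the libraries are paired. With the replicate block 10, 0 and 8 genes were called in the 3 comparisons and 0 members, and not every library correlated best with its own number. At totals of 5355691 to 6979851 counts a library, the test could not resolve the 6 genes at or near 0.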

Other observations

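Reads of many lineage genes came mainly from single libraries. Of the 53 members and further lineage genes with at least 10 counts over the series, 18 (34.0%) had over 50% of their summed scaled CPM in 1 library, against 18.4% of all 21486 genes with at least 10 counts. The highest shares were those of Ugt8a, an enzyme of myelin lipid synthesis, with 97.1% in GFP library 1, Pdgfra with 88.7% in Olig3 library 2 and Tmem100 with 83.3% in Olig2 library 1. Bmp4, a secreted factor made by committed progenitors, had 70.9% in GFP library 2, and Enpp6, of newly formed oligodendrocytes, 54.7% in Olig3 library 3. The libraries that led differed between genes, and genes with few counts reach high shares more readily, which was not adjusted for.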
